A study of Mus musculus with 6 samples.

Results

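The immune checkpoint ligands and receptors listed here are surface proteins and 1 secreted lectin. Through many of them a macrophage can restrain T cells, or a cell can hold back its own engulfment by a macrophage. The 10 genes described here were taken by name from the table of counts, not by a rule on their values. Earlier results of these data were known when they were chosen. The genes are Cd274, Pdcd1lg2, Cd276 and Vsir of the B7 family, Sirpa and Cd47, the receptors Havcr2 and Lilrb4a, and the lectins Lgals9 and Siglec1. All 10 were among the 21878 genes of the table, and all 10 passed the filter on low counts that kept 12136 genes.

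The RNA came from macrophages sorted out of MC38 tumours, grown from a mouse colon carcinoma line, 14 days after the tumour cells were injected. The 3 KO libraries were from Trmt61af/fLysmCre mice and the 3 WT libraries from Trmt61af/f mice, so the controls carry the same floxed Trmt61a alleles without the Cre. LysM-Cre is expressed from the lysozyme M locus and acts in macrophages, monocytes and neutrophils, so the deletion is not limited to tumour macrophages. Trmt61a encodes the catalytic subunit of the tRNA m1A methyltransferase, and the study asks how this tRNA mark bears on antitumour immunity in macrophages. The labels state no strain, age, sex or sorting gate, and do not say whether each library came from its own mouse. The p-values therefore measure the spread between these 6 libraries alone, and part of that spread may be technical.

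PD-L1 (Cd274) and PD-L2 (Pdcd1lg2) bind PD-1 on T cells and dampen signalling from the antigen receptor. In macrophages PD-L1 is induced by interferon gamma, and PD-L2 is known as a product of macrophages and dendritic cells exposed to interleukin 4. CD47 on a target cell engages SIRPA on the macrophage, whose tail recruits the phosphatases SHP-1 and SHP-2 and holds back phagocytosis.

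Library totals ran from 18839026 to 20313597 counts. Macrophage genes were abundant in every library, with Csf1r, the receptor for the growth factor CSF1, at 1245 to 1578 CPM and Adgre1, which encodes F4/80, at 445 to 603 CPM. CPM values are counts scaled to the TMM-adjusted library total. In a principal component analysis KO replicate 2 scored 29.4 on the leading axis and the other 5 libraries -18.0 to 5.26, so log2 values of named genes that moved most with it are also given without it. Markers of other cells were present at lower levels. Cd3e of T cells was at most 2.89 CPM, Flt3 of dendritic cells at most 1.78 CPM, and Ly6g of neutrophils was at 0 in 5 of 6 libraries. Other markers were higher, each the most abundant gene of its list. Means were 131.9 CPM for Col3a1 of fibroblasts and 117.8 CPM for Cdh1 of epithelium. Those of Pecam1 of endothelium and Csf3r of neutrophils were 58.5 and 42.3 CPM. All 6 epithelial markers together averaged 115.4 CPM (WT) and 120.9 CPM (KO), so Cdh1 made up nearly all of that sum. Only 1 of the 6 passed the filter on low counts. Pecam1 is also listed here among inhibitory receptors of myeloid cells. Which cells these 4 transcripts came from was not tested. The targeted gene, Trmt61a, averaged 7.45 ± 0.532 CPM in the WT and 2.11 ± 0.366 CPM in the KO libraries (SD, n = 3 each; edgeR adjusted p = 0.0426), with all 3 KO libraries below all 3 WT libraries. That call was lost in 8 of 16 alternatives: the filter at 1 CPM, limma-voom, the replicate block (adjusted p = 0.103), and the omission of any single library other than KO replicate 2, which gave adjusted p of 0.0707 to 0.314.

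Promoter windows from RefSeq (GRCm38.p6), 250 bases before to 50 after a start site, were found for 7 of the 10 genes, 8 windows in all. Lilrb4a, Sirpa and Siglec1 were not matched. Each window was searched on both strands for the core of the interferon-stimulated response element, GAAA, any 2 bases and GAAA. It was found in 3.44% of 32851 windows of the same length. Of the 8 windows 1 held it: that of Lgals9 held it in 2 places, starting at bases -55 and 16 from the start site, both on the reverse strand. The 250 bases before the start site are shown for Cd274, as the ligand best known to respond to interferon, and for Lgals9, as the gene with the match. They lie at chr19:29367188-29367437 on the plus strand and at chr11:78984925-78985174 on the minus strand. Capitals mark the match, and the second match of Lgals9 lies past the end of the printed run. Another interferon-type motif, TTC, any 3 bases and GAA, was searched for in the same windows. It was found in 8.30% of the 32851 windows and in 0 of the 8. A match is a run of letters and not a measured binding site.
Cd274: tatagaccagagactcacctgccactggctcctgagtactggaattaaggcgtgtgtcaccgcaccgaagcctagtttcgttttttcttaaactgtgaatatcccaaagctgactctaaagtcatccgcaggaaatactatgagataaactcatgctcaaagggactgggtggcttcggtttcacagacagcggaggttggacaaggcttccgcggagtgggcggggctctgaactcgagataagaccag
Lgals9: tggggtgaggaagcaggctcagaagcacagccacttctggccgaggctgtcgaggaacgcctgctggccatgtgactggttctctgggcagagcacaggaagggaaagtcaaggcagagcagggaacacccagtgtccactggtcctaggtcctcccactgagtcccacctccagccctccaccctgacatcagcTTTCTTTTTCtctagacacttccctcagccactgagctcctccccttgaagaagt

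The 10 genes differed widely in level. Per kilobase of exon, with exon lengths from GENCODE M21, Sirpa was highest at 191.5 ± 11.4 CPM per kb (SD over 6 libraries), followed by Lilrb4a at 151 ± 23.3 and Cd274 at 119.9 ± 19.3. The libraries of Sirpa and Lilrb4a overlapped, as did those of Lilrb4a and Cd274. A gap separated Cd274 from Lgals9, at 61.4 ± 1.35 CPM per kb. Vsir (55.5 ± 4.0), Havcr2 (46.0 ± 4.04), Siglec1 (38.2 ± 7.66), Pdcd1lg2 (36.6 ± 10.6) and Cd47 (24.8 ± 0.500) followed, each overlapping its neighbour in this order. Cd276 was lowest at 5.26 ± 1.01 CPM per kb and did not overlap Cd47.

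**Figure D1:**
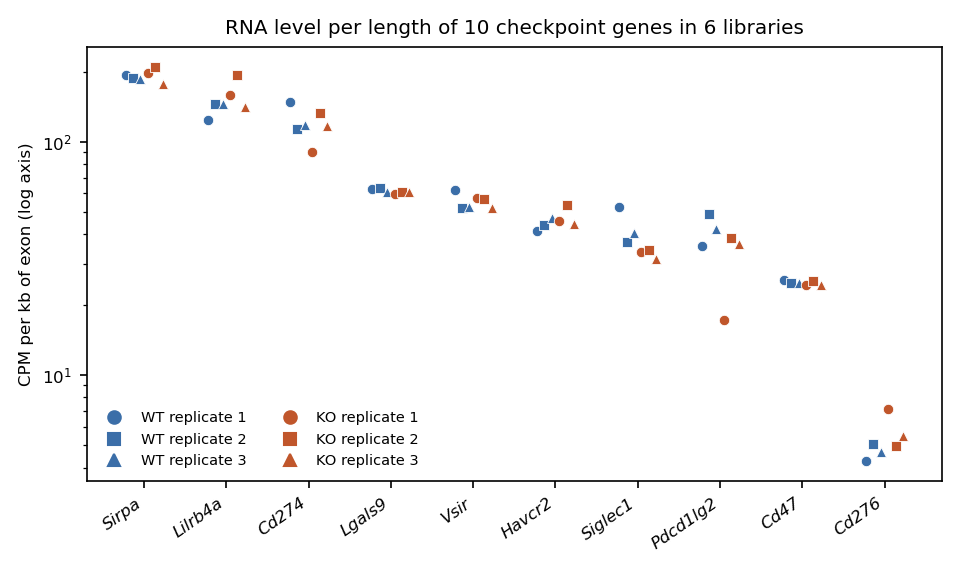
Level of each of the 10 genes in CPM per kb of exon, on a log axis, with 1 point per library (blue WT, orange KO; the shape gives the replicate). Sirpa, Lilrb4a and Cd274 lie above the other 7 genes, and Cd276 lies below them all.

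With edgeR 0 of the 10 genes passed an adjusted p under 0.05 in KO against WT, where 2 of 12136 genes (0.0165%) passed. At an unadjusted p under 0.05 there were 2 of 10, Siglec1 lower and Cd276 higher, beside 6.92% of all tested genes. The median log2 fold change (KO over WT) was -0.014 over the 10 genes and -0.00088 over all tested genes, with 4 of the 10 positive and 6 negative. KO libraries lay wholly below WT libraries for 2 of 10, Siglec1 and Lgals9, and wholly above them for 0 of 10, beside 6.3% and 6.11% of all tested genes. DESeq2, limma-voom and limma-voom with quality weights also called 0 of 10, and the smallest adjusted p over the 16 alternatives was 0.252, for Siglec1 with DESeq2.

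**Figure D2:**
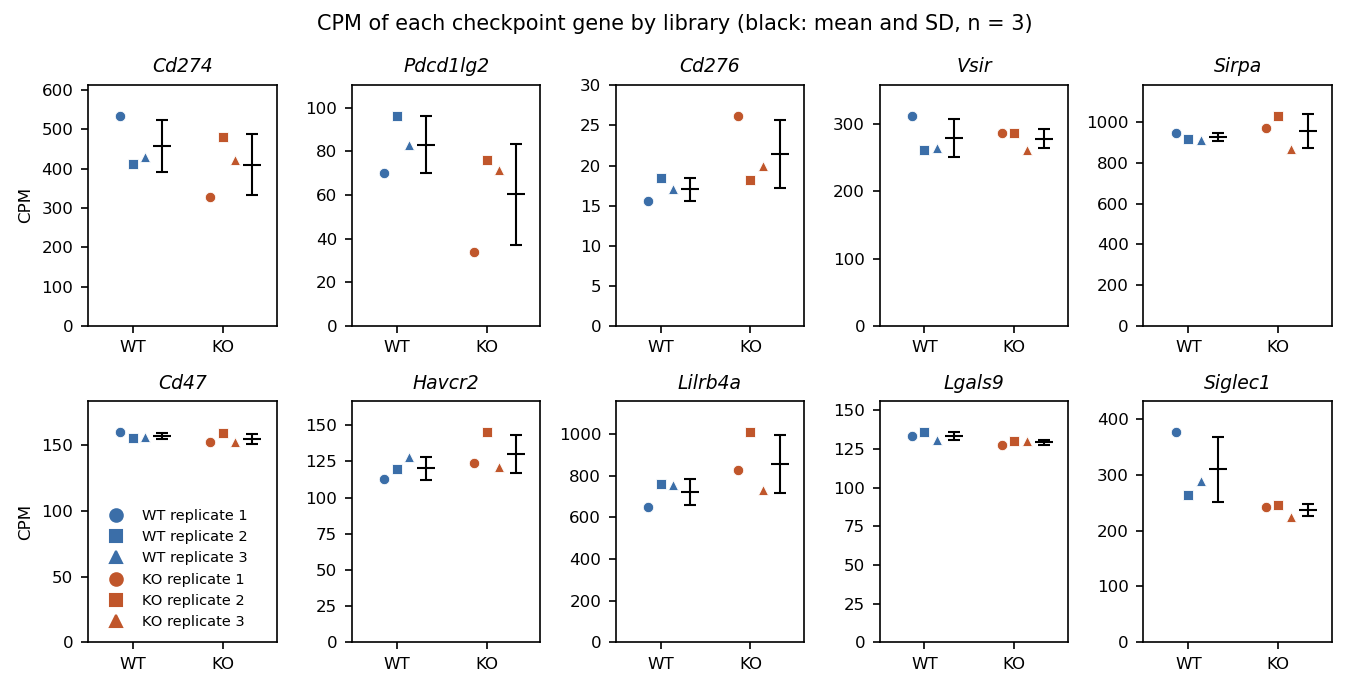
CPM of each gene in the 3 WT (blue) and 3 KO (orange) libraries, each axis starting at 0, with the group mean and SD in black. Siglec1 is lower in all KO libraries than in any WT library, Pdcd1lg2 has its lowest point in KO replicate 1 at 33.8 CPM, and Cd47 and Lgals9 vary least, 1.05-fold and 1.06-fold from lowest to highest.

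Among the B7 family ligands, Cd274 (NCBI Gene 60533; chromosome 19, 29367455 to 29388095, plus strand, GRCm38) was the most abundant. It was at 534, 412 and 429 CPM in WT replicates 1, 2 and 3 and at 327, 482 and 423 CPM in KO replicates 1, 2 and 3. WT replicate 1 was highest, KO replicate 1 lowest, and the other 4 libraries of both genotypes lay between 412 and 482 CPM. The fold change, KO over WT, was 0.896, with a 95% interval of 0.705 to 1.14 (edgeR log2 fold change -0.16, SE 0.151, adjusted p = 0.843). The log2 value was -0.019 without KO replicate 1, -0.034 without WT replicate 1 and -0.29 without KO replicate 2.

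Pdcd1lg2 (NCBI Gene 58205; chromosome 19, 29410919 to 29471161, plus strand) lies next to Cd274 on the same strand, with a gap of 22.8 kb between them. Its levels were 70.2, 96.2 and 82.7 CPM in WT and 33.8, 76.0 and 71.4 CPM in KO, in the order of the replicates. KO replicate 1 stood below the other 5 libraries, and the other KO values fell within the WT range. The fold change was 0.728, with an interval of 0.469 to 1.13 (edgeR log2 -0.46, SE 0.274, adjusted p = 0.759), the widest interval of the 10 genes. Its log2 value was -0.17 without KO replicate 1 and -0.72 when limma-voom weighted the libraries by quality (adjusted p = 0.493). Both PD-1 ligands were thus lowest in the same library, although Cd274 peaked in WT replicate 1 and Pdcd1lg2 in WT replicate 2. Per length there was 2.32 to 5.24 times as much Cd274 as Pdcd1lg2 RNA within a library, with the highest ratio in KO replicate 1.

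Dendritic cells can carry both PD-1 ligands, so their markers were read beside these values. The 11 dendritic cell markers summed to 80.2 CPM in KO replicate 1 and to 72.6 to 99.8 CPM in the other libraries, and 0 of 11 were at 0 in all libraries. Most of that sum was Fscn1, an actin-bundling protein, at 56.4 CPM on average. Of 9 markers tested 5 had positive and 4 negative log2 values, with a median of 0.22. Picked after their values were seen, the transcription factor genes Batf3 and Zbtb46 were lowest in KO replicate 1, at 1.92 CPM against 4.33 to 5.25 CPM and at 0.883 against 1.58 to 2.54 CPM. Others were not, such as Ccr7, a chemokine receptor of migrating dendritic cells, at 14.7 CPM there and 7.16 to 23.7 CPM elsewhere. The part of dendritic cells in the low PD-1 ligand values of this library was not tested, and in bulk RNA fewer cells of a type and less RNA per cell cannot be told apart.

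Cd276 (NCBI Gene 102657; chromosome 9, 58524298 to 58555437, minus strand) encodes B7-H3, a B7 family protein whose receptor on T cells is not settled. It was at 15.6, 18.5 and 17.0 CPM in WT and at 26.2, 18.2 and 19.96 CPM in KO. KO replicate 1 was highest and WT replicate 1 lowest, the reverse of Cd274, and KO replicate 2 lay within the WT range. The KO level was fitted at 1.26-fold that of WT, with an interval of 1.01 to 1.57 (edgeR log2 0.33, SE 0.143, unadjusted p = 0.0438, adjusted p = 0.713). Without KO replicate 1 the log2 value was 0.16.

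Vsir (NCBI Gene 74048; chromosome 10, 60346851 to 60372684, plus strand) encodes VISTA, a ligand and receptor that restrains T cells and is made mainly by myeloid cells. WT libraries held 311, 262 and 264 CPM and KO libraries 286, 286 and 261 CPM. The ranges overlapped, and the fold change was 0.996, with an interval of 0.871 to 1.14 (edgeR adjusted p = 0.988). The sign of its log2 value, -0.0063, turned with 4 of 16 alternatives. The gene lies inside Cdh23, a cadherin gene on the opposite strand, which had at most 12 counts in a library.

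Sirpa and Cd47, the receptor and the ligand of the signal that stops phagocytosis, were measured closely. Sirpa (NCBI Gene 19261; chromosome 2, 129592835 to 129632228, plus strand) was at 947, 919 and 911 CPM in WT and at 970, 1030 and 867 CPM in KO. KO replicates 2 and 3 were the highest and the lowest of all 6, so the KO libraries enclosed the WT libraries. The fold change was 1.03, with an interval of 0.911 to 1.17 (edgeR adjusted p = 0.907), and its log2 value of 0.046 became -0.011 without KO replicate 2 and 0.11 without KO replicate 3.

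Cd47 (NCBI Gene 16423; chromosome 16, 49800533 to 49915010, plus strand) was at 159.5, 155.5 and 155.9 CPM in WT and at 152.1, 159.1 and 152.5 CPM in KO. Its highest library exceeded its lowest 1.05-fold, the smallest such ratio of the 10 genes. KO over WT it was 0.985-fold, with an interval of 0.892 to 1.09 (edgeR adjusted p = 0.947), and its log2 value of -0.022 ranged from -0.044 to -0.0092 with 1 library left out. Per length, Sirpa RNA exceeded Cd47 RNA 7.47 to 7.58 times in WT and 7.27 to 8.28 times in KO libraries.

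The inhibitory receptor genes Havcr2 and Lilrb4a both had positive log2 values that did not pass. Havcr2 (NCBI Gene 171285; chromosome 11, 46454935 to 46481255, plus strand) encodes TIM-3, which binds galectin-9, phosphatidylserine and HMGB1. It was at 113, 120 and 128 CPM in WT and at 124, 145 and 121 CPM in KO. KO replicate 2 stood highest, and the other KO values lay within the WT range. The fold change was 1.08, with an interval of 0.944 to 1.24 (edgeR log2 0.11, SE 0.0876, adjusted p = 0.801), and the log2 value was 0.026 without KO replicate 2 and 0.068 without WT replicate 1.

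Lilrb4a (NCBI Gene 14728; chromosome 10, 51490956 to 51496611, plus strand) encodes an inhibitory receptor of myeloid cells with immunoreceptor tyrosine-based inhibitory motifs. Its levels were 650, 760 and 757 CPM in WT and 826, 1008 and 733 CPM in KO. KO replicates 1 and 2 lay above all WT libraries and KO replicate 3 below 2 of them. The fold change was 1.19, with an interval of 0.986 to 1.43 (edgeR log2 0.25, SE 0.119, unadjusted p = 0.0668, adjusted p = 0.725), and the log2 value was 0.11 without KO replicate 2. Lilr4b, its close copy, followed with 547, 520 and 620 CPM in WT and 651, 875 and 496 CPM in KO (log2 0.26). No source used here says how reads that match both genes were counted, so both values are uncertain. In GENCODE M21 the protein-coding gene Gm49339 also overlaps Lilrb4a on the same strand, over 5656 bases. Gm49339 was not in the table of counts, and how reads shared with it were counted is not known either.

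KO replicate 2, the highest library for Havcr2 and Lilrb4a, also held the most T and NK cell RNA. The 12 markers of those cells that were in the table summed to 74.2 CPM there and to 25.9 to 44.1 CPM in the other libraries, with Cd3e at 2.89 CPM against 0.519 to 1.69 CPM. Neutrophil markers summed to 100.5 CPM there and to 54.7 to 72.0 CPM elsewhere. Without that library the neutrophil sum, KO minus WT, went from 13.6 to 0.745 CPM. Of 6 neutrophil markers tested 5 had positive and 1 negative log2 values, with a median of 0.62. With edgeR 3 were higher at an unadjusted p under 0.05, beside 6.92% of all tested genes in either direction. KO libraries lay wholly above WT libraries for 2 of the 6, beside 6.11% of all tested genes. With edgeR, DESeq2 or limma-voom 0 passed. T cells also make TIM-3. The part of these cells in the Havcr2 value was not tested.

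Lgals9 (NCBI Gene 16859; chromosome 11, 78962974 to 78984946, minus strand) encodes galectin-9, a ligand of TIM-3. It was at 133.6, 135.6 and 130.4 CPM in WT and at 127.5, 129.9 and 130.1 CPM in KO. The groups did not overlap, but the highest KO and the lowest WT library were 130.1 and 130.4 CPM. KO over WT it was 0.970-fold, with an interval of 0.880 to 1.07 (edgeR log2 -0.044, SE 0.0626, adjusted p = 0.887). Its log2 value was -0.025 without WT replicate 2.

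Siglec1 (NCBI Gene 20612; chromosome 2, 131069220 to 131086765, minus strand) had the smallest p of the 10 genes. It encodes CD169, a sialic acid-binding lectin of macrophages that is known as an interferon-inducible gene. It was at 375, 264 and 289 CPM in WT and at 241, 245 and 224 CPM in KO. All 3 KO libraries lay below all 3 WT libraries, and WT replicate 1 stood apart above the rest. The fold change was 0.765, with an interval of 0.634 to 0.924 (edgeR log2 -0.39, SE 0.121, unadjusted p = 0.0105). Over all genes it did not pass (adjusted p = 0.701), and it ranked 168 of 12136 by p. Its log2 value was -0.22 without WT replicate 1 and between -0.48 and -0.34 without any other single library.

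**Figure D3:**
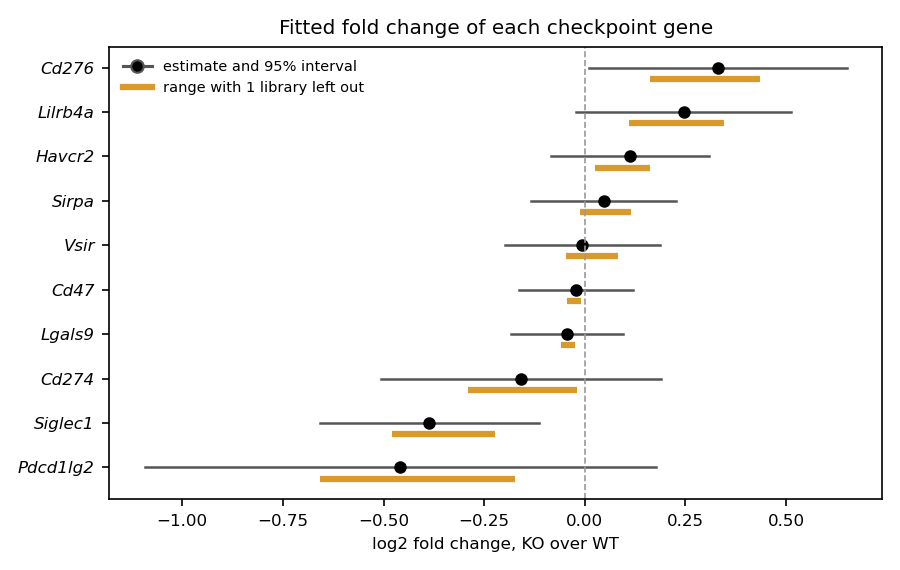
Fitted log2 fold change of each gene, KO over WT (black point), with its 95% interval (grey line) and the range of estimates with 1 library left out (orange bar). The intervals of Siglec1 and Cd276 do not reach 0 before adjustment for the 12136 genes tested, and the interval of Pdcd1lg2 is the widest.

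Across libraries, WT replicate 1 was the highest of the 6 for 4 of the 10 genes and the lowest for 3, and KO replicate 1 was the highest for 1 and the lowest for 4. A score of the 15 tested interferon gamma response genes was the mean of their log2 CPM centred over the 6 libraries. It was 0.606, -0.033 and 0.210 in WT and -0.754, 0.071 and -0.101 in KO. It was highest in WT replicate 1 and lowest in KO replicate 1, as was Cd274, and the groups overlapped (two-sided exact permutation p = 0.2, where 0.1 is the smallest that 3 libraries against 3 allow). A score of 14 type I interferon response genes had the same highest and lowest libraries, at 0.413 and -0.404 (exact permutation p = 0.5). The mean difference, KO minus WT, was -0.522 for the gamma score and -0.276 without KO replicate 1. For the type I score it was -0.26, with -0.118 without WT replicate 1 and -0.123 without KO replicate 1. Whether these scores account for the spread of Cd274 or Siglec1 was not tested.

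**Figure D4:**
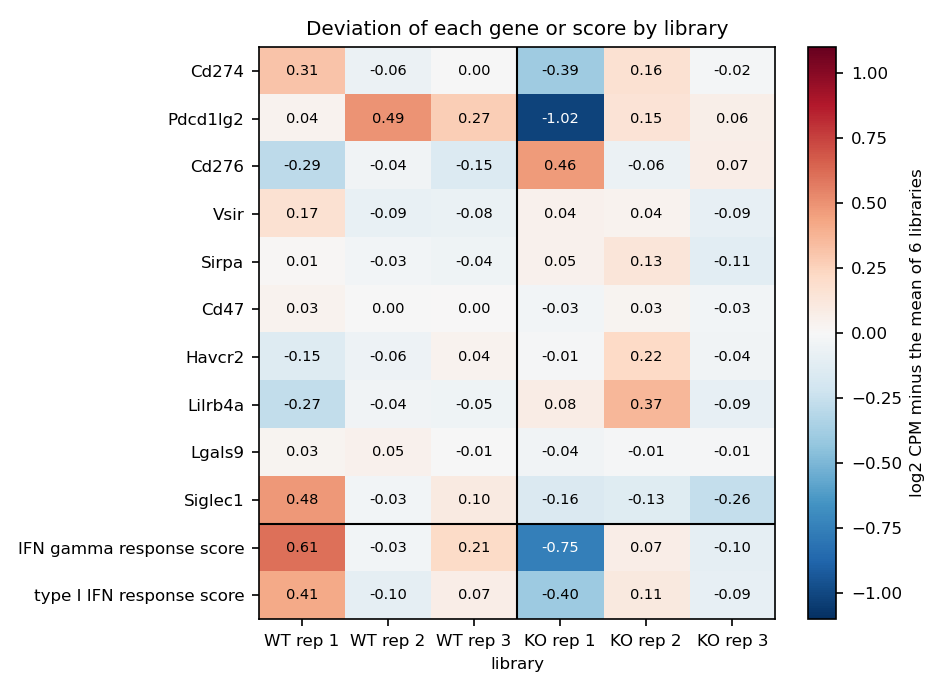
Deviation of log2 CPM from the mean of the 6 libraries for each gene, and the 2 interferon scores below the line, with WT left and KO right. WT replicate 1 and KO replicate 1 carry opposite deviations for Cd274 (0.31 and -0.39), Cd276 (-0.29 and 0.46) and both scores.

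Of the interferon genes themselves, 15 of 15 tested in the gamma response list and 14 of 14 in the type I list had negative log2 values, with medians of -0.49 and -0.24, and 0 passed with edgeR, DESeq2 or limma-voom. An unadjusted p under 0.05 was reached by 5 of the gamma list and 3 of the type I list, all lower in KO. Of all 12136 tested genes 371 were lower at that threshold and 6094 had negative log2 values. Genes of 1 list can rise and fall together over the libraries, so their shared sign is not a count of independent results. The T cell chemokines Cxcl10 (log2 -1.21, SE 0.315) and Cxcl9 (-0.54, SE 0.193), the guanylate-binding protein gene Gbp5 (-1.02, SE 0.306) and the GTPase gene Iigp1 (-0.59, SE 0.225) had the smallest p values of the gamma list. Bst2 (-0.27), Ifi44 (-0.76), Isg15 (-0.32) and Ifit3 (-0.33) had those of the type I list. Several rested partly on 1 library. Without WT replicate 1 the log2 value was -0.80 for Cxcl10, -0.36 for Iigp1 and -0.15 for Ifit3. Without KO replicate 1 it was -0.34 for Cxcl9, -0.49 for Ifi44 and -0.18 for Isg15. The signalling chain from the interferon gamma receptor to Cd274 was mixed, with 8 of 11 negative, a median of -0.033 and 0 at an unadjusted p under 0.05. Its 3 smallest p values belonged to the receptor chains Ifngr1 (log2 0.16, SE 0.0847) and Ifngr2 (-0.16, SE 0.0834) and the kinase Jak2 (-0.18, SE 0.107). Without WT replicate 1 Ifngr2 was at -0.080 and Jak2 at -0.078, and without KO replicate 2 Ifngr1 was at 0.095. No gene of this list passed with any of the 3 tools (edgeR adjusted p of at least 0.725).

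A list of 15 costimulatory and other B7 or TNF family genes held ligands that activate T cells and also others. Among these others were Cd40, a receptor gene, and Nectin2. Of the 15 genes 11 were tested. Of these 4 were positive and 7 negative, with a median log2 of -0.099, and 0 passed with edgeR, DESeq2 or limma-voom. Before adjustment 1 was higher and 2 were lower at p under 0.05. Tnfsf9, the ligand of the costimulatory receptor 4-1BB, was at 78.2, 32.1 and 43.7 CPM in WT and at 24.0, 27.9 and 24.0 CPM in KO (edgeR log2 -1.02, SE 0.292, adjusted p = 0.701), with no overlap. Cd40, which receives help from T cells, was at 84.2, 44.1 and 54.0 CPM in WT and at 27.4, 44.9 and 34.0 CPM in KO, and its groups overlapped (log2 -0.78, SE 0.258). WT replicate 1 was highest for both, and without it the log2 values were -0.58 for Tnfsf9 and -0.47 for Cd40. Cd80, the B7 ligand of CD28 and CTLA-4 that also binds PD-L1 on the same cell, went the other way, at 94.7, 121.9 and 121.9 CPM in WT and 136.9, 134.6 and 142.0 CPM in KO, without overlap (edgeR log2 0.29, SE 0.0986, adjusted p = 0.701), with 0.18 when WT replicate 1 was left out. Nectin2, a ligand of TIGIT, had a log2 value of -0.16 (SE 0.10) and Cd86, the partner of Cd80, 0.093.

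Among 17 tested of 18 other inhibitory receptors of myeloid cells, 12 were positive and 5 negative, with a median log2 of 0.088, 1 of them higher and 1 lower at an unadjusted p under 0.05, and 0 passed with edgeR, DESeq2 or limma-voom. Lair1, a collagen receptor, was at 179.7, 156.5 and 155.0 CPM in WT and at 108.4, 138.1 and 143.7 CPM in KO, with no overlap (edgeR log2 -0.33, SE 0.111, adjusted p = 0.701). Cd300lf (log2 0.27, SE 0.113), Cd200r1, the receptor of CD200 (0.29, SE 0.139), and Ceacam1 (0.24, SE 0.121) had positive values, and their groups overlapped. The log2 value of Lair1 was -0.22 without KO replicate 1, that of Cd300lf 0.18 without KO replicate 2, and that of Cd200r1 0.17 without WT replicate 1 and 0.49 without WT replicate 2.

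Partners and signalling proteins of the 10 genes numbered 18, all tested, with 8 positive, 10 negative and a median log2 of -0.032. With edgeR, DESeq2 and limma-voom 0 passed, while 1 higher and 1 lower gene had an unadjusted p under 0.05. Cmtm4, which like Cmtm6 keeps PD-L1 protein from being degraded, was at 30.4, 34.5 and 31.3 CPM in WT and at 30.1, 25.1 and 25.1 CPM in KO (edgeR log2 -0.26, SE 0.101, adjusted p = 0.703). Cmtm6 itself had a log2 value of -0.057. Thbs1, thrombospondin 1, a ligand of CD47, was at 7237, 8738 and 7781 CPM in WT and at 10110, 8252 and 10180 CPM in KO (log2 0.26, SE 0.109, adjusted p = 0.713), with KO replicate 2 inside the WT range. Calr, calreticulin, an engulfment signal that CD47 opposes, had a log2 value of -0.18 (SE 0.0949), and Hmgb1, a ligand of TIM-3, -0.10 (SE 0.0763). They were -0.092 for Calr without WT replicate 1 and -0.045 for Hmgb1 without WT replicate 3. The phosphatase genes Ptpn6 and Ptpn11 were at -0.10 and -0.0067, and Qpctl, whose enzyme modifies CD47 for binding to SIRPA, at -0.058.

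Receptors of T and NK cells were mostly low. Pdcd1, which encodes PD-1, was at 1.16 to 5.51 CPM, and Ctla4 at 3.02 to 7.56 CPM, both with their highest value in KO replicate 2. Of 14 listed genes 11 were tested, and 10 of these had positive log2 values, with a median of 0.51, but 0 passed with edgeR, DESeq2 or limma-voom and 1 was higher at an unadjusted p under 0.05. Cd28 (log2 0.88, SE 0.385), Tigit (0.77, SE 0.402) and Tnfrsf4, which encodes OX40 (0.56, SE 0.349), were highest in KO replicate 2, as was the T and NK cell marker sum. Without that library their log2 values were 0.38, 0.46 and 0.12, and the marker sum, KO minus WT, went from 10.5 to -3.85 CPM. Tnfrsf9, which encodes 4-1BB, was the exception in level, at 117, 232 and 173 CPM in WT and 241, 193 and 252 CPM in KO (log2 0.39, SE 0.226), with overlapping groups. Its log2 value was 0.18 without WT replicate 1 and 0.66 without WT replicate 2.

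**Figure D5:**
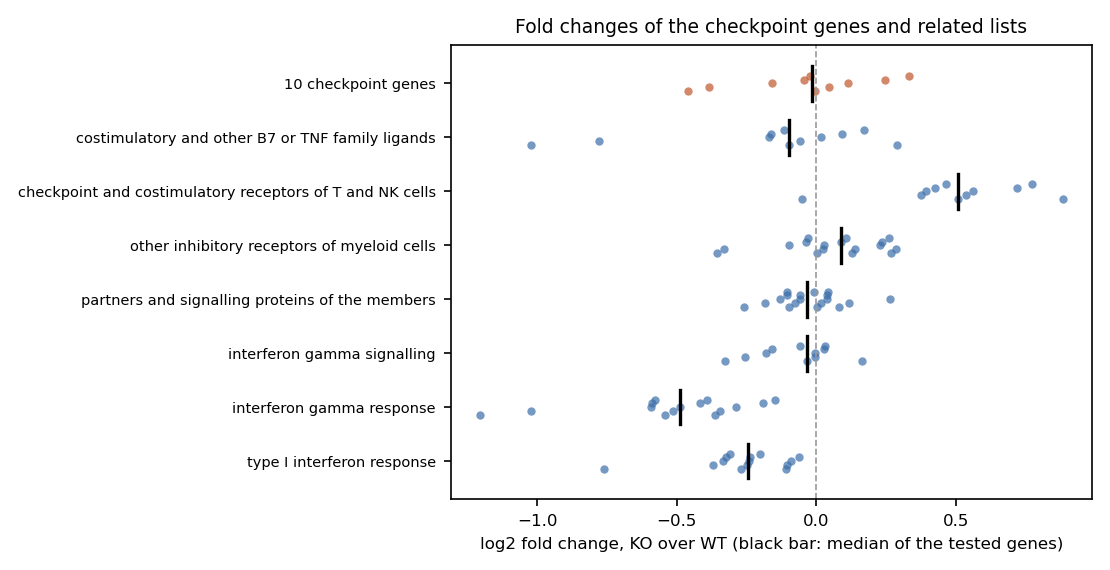
Log2 fold change, KO over WT, of every tested gene of the 10 checkpoint genes (orange) and of each related list (blue), with the median as a black bar. The checkpoint genes are centred near 0 with a median of -0.014, both interferon response lists lie wholly below 0, and none of the plotted genes passed an adjusted p under 0.05.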

How the data were processed

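RNA from sorted tumour macrophages was sequenced in 6 libraries, 3 WT and 3 KO, made with a stranded mRNA kit per the labels. The authors deposited whole-number read counts for each gene, not normalized. The submitters' processing notes name Trimmomatic, HISAT2, Cufflinks, HTSeq and mm10. The sources used here do not give versions, the annotation, the strand setting or the handling of shared reads.

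All 12136 genes kept by filterByExpr (minimum count 10, minimum total 15) were fitted with edgeR 4.0.16 in R 4.3.3: TMM factors, robust quasi-likelihood test, genotype as the only term, Benjamini-Hochberg adjustment over all of them, called under 0.05. The fit was tested on simulated data, where 11 of 179 calls were false. No simulated library was made to stand apart as KO replicate 2 does, so this does not measure its accuracy here. Alternatives were other factors and filters, DESeq2 1.42.0, limma 3.58.1, a replicate block and leaving out each library. Positions and merged exon lengths are from GENCODE M21 (GRCm38).

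The 10 genes and the lists were chosen with earlier results of these data known. Of 189 list symbols 186 were matched to the table. From each list of related genes the 4 tested genes with the smallest p are named. A gene that this rule names in 1 list is not reported here. Other list genes named beside them were chosen for their role after their values were seen, as were the ratios between genes. The 5 genes most like Cd274 and like Siglec1 were taken by Pearson r of log2 CPM.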

Additional observations from a re-analysis of the deposited data

How the results depend on the processing

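None of the 10 checkpoint genes was called by edgeR or by any of the 16 alternatives. The count of called genes was 2 and became 1 with RLE factors, with upper-quartile factors, with library totals alone, without a filter, with limma-voom and with the replicate block, 0 with a filter of 1 CPM in 3 libraries, 29 with DESeq2 and 4 with quality weights, and ranged from 0 (leaving out the third WT, the first KO or the third KO library) to 5 (without KO replicate 2). The cause was not tested. Same-numbered libraries did not deviate together (correlations of -0.057, -0.094 and -0.109), so the replicate number was not taken as a pairing. The log2 value of Vsir turned to 0.0023 with the 1 CPM filter and 0.037 with quality weights, and ranged from -0.046 to 0.082 with 1 library left out. That of Sirpa ranged from -0.011 to 0.11. The median of the 10 genes was 0.0065 with quality weights and -0.037 to 0.028 with 1 library left out. Summed markers, KO minus WT in CPM, changed sign with 1 library left out for macrophages (-866 to 291), dendritic cells (-5.34 to 8.27), T and NK cells (-3.85 to 20.3), B cells (-0.964 to 0.024), tumour epithelium (-13.7 to 18.5) and fibroblasts (-31.9 to 29.8). The precision for each of the 10 genes is set by 3 libraries a group and is given by its interval.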

Other observations

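The genes whose log2 CPM over the 6 libraries was most like that of Cd274 were Ergic2 (Pearson r = 0.995), Tap2 (0.994), Rmi2 (0.991), Was (0.986) and Trex1 (0.986), out of 9801 other genes with a mean of at least 5 CPM. Tap2, a subunit of the transporter that feeds peptides to MHC class I, was at 239.7, 183.5 and 186.6 CPM in WT and at 140.3, 205.1 and 182.7 CPM in KO. Trex1, a DNA exonuclease, was at 60.4, 44.7 and 46.1 CPM in WT and at 36.2, 50.8 and 47.7 CPM in KO. All 5 genes had the extremes of Cd274, with WT replicate 1 highest and KO replicate 1 lowest. This follows from picking them by their likeness to Cd274 over the same libraries. These r are over 6 libraries that differ in other respects too, and 227 genes had an r over 0.9 with Cd274.

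For Siglec1 the most alike were Kctd12 (Pearson r = 0.993), Mmd (0.990), Tnfsf9 (0.990), Treml2 (0.987) and Rp2 (0.987), and 215 genes had an r over 0.9. Kctd12 was at 889, 672 and 751 CPM in WT and at 638, 637 and 582 CPM in KO. Its likeness to Siglec1 in these values follows from picking it by that likeness over the same libraries. Pdcd1lg2, the neighbour of Cd274, ranked 1416 by likeness to it, and Cd47 ranked 343. Cd276 had an r of -0.92 with Cd274.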
